A study of Mus musculus with 20 samples.

Results

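Interferon-stimulated genes are the genes that cells switch on when interferon is sensed. The set described here holds 38 of them outside the Oas and Gbp families. They were picked by name, as rows of the deposited expression tables whose gene symbol is on the list. The list was chosen with earlier results of these data known, so the shares called below are not an independent test of it. All 38 were found among the 17294 genes of the acute table and the 16195 genes of the prolonged table, and all 38 passed the filter on low expression at both times.

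RNA-seq of jejunal epithelium from female mice compared controls with mice in which Kdm6a and Kdm6b had been ablated, called DKO for double knockout. These genes encode demethylases that act on lysine 27 of histone H3, and the series design names crypt cells as the source. The acute groups were taken 7 days after ablation was induced, with 5 control libraries, labelled control or wild type, and 7 DKO libraries. The prolonged groups were taken 5 months after it, with 3 control and 5 DKO libraries. The alleles, the recombinase and its promoter, the inducing agent, the strain and the age of the mice were not given in the labels or design text used here, and whether the controls carried any of these, or received the same treatment, cannot be stated. The labels call the libraries biological replicates, and each acute label carries an animal number of its own. The prolonged labels carry none, so p-values there measure the spread between these libraries.

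Cells make interferons after sensing foreign or misplaced nucleic acid. Type I and type III interferons signal through receptor-bound Janus kinases to a complex that holds Stat2 and Irf9 and binds a DNA element called the interferon-stimulated response element (ISRE). Type II interferon acts through another element, the gamma-activated site (GAS). In the gut, epithelial cells respond strongly to type III interferon, and many of the induced proteins sense viral RNA, block translation or modify other proteins. Some genes of this class are also held at a low basal level without infection.

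The letters of the element by which the family is known were looked for around the start sites, and the stretches that hold them before the start are shown first. A window from 250 bases before to 50 bases after the start was available from RefSeq (GRCm38.p6) for 30 of the 38 genes. The authors' tables use another build, mm9, so these positions belong to the sequences alone. The ISRE letters, GAAA, any 2 bases and GAAA again, searched on both strands, occurred in the window of 11 of the 30 genes (36.7%), and in 1079 of 27025 genes with a window (3.99%). In 8 of the 30 genes the letters lay before the start, and these stretches follow, each 5′ to 3′ on the strand of its gene. Capitals mark the ISRE letters or their reverse complement, with overlapping matches run together.
Bst2, chr8:71537572-71537617, minus strand: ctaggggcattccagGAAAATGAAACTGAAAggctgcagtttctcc
Cxcl10, chr5:92349078-92349117, minus strand: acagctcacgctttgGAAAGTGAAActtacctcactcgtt
Ddx60, chr8:61928019-61928086, plus strand: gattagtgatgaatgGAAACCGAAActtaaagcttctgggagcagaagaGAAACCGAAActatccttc
Ifit1, chr19:34640770-34640828, plus strand: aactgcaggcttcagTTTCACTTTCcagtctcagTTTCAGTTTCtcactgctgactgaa
Ifit3, chr19:34583358-34583431, plus strand: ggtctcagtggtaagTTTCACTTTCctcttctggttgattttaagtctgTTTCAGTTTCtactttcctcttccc
Isg15, chr4:156200860-156200911, minus strand: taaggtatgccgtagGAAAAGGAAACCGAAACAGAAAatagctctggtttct
Rsad2, chr12:26456548-26456587, minus strand: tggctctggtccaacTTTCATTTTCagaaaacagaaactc
Stat2, chr10:128270261-128270300, plus strand: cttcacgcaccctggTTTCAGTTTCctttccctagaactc

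Bst2, Ddx60, Ifit1, Ifit3 and Isg15 each held more than 1 match. In Isg15 and Bst2 the matches overlapped in an unbroken run, and in Ddx60 they lay apart. Ddx58, Eif2ak2 and Ifih1 held the letters after the start and are named only. The GAS letters TTCNNNGAA, which read the same on both strands, occurred in 7 of the 30 windows (23.3%) and in 2582 of the 27025 genes (9.55%). These matches describe the letters of the window and do not show that a factor was bound there.

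Both targeted genes separated the genotypes at each time. Kdm6a lay between 57.7 and 72.6 CPM (reads of a gene after scaling each library to 1 common total) in acute controls and between 38.5 and 45.7 CPM in acute DKO libraries, and between 70.8 and 82.6 and between 44.4 and 55.3 CPM at the prolonged time. Kdm6b lay between 91.2 and 109 and between 59.8 and 81.1 CPM at the acute time, and between 99.5 and 107 and between 71.4 and 82.9 CPM at the prolonged time. Libraries held between 9914738 and 26586045 reads in genes, and prolonged control 3 was the shallowest. Markers of epithelium were present in all libraries, with a summed level between 7800 and 9280 CPM.

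The interferon-stimulated genes as a group were higher after ablation, at 7 days and again at 5 months. At the acute time 20 of the 38 were called higher and 0 lower, where a call is a Benjamini-Hochberg adjusted p under 0.05 by limma over all tested genes. Of the 13601 genes tested, 2.9% were called higher and 12.1% lower. After 5 months 21 of the 38 were called higher and 0 lower, against 5.74% and 8.94% of 13316 genes. With TMM scaling, which allows for composition, limma called 22 and 21 of the 38 higher (4.85% and 6.55% of all genes), and the acute split of all genes was 660 higher and 1124 lower in place of 394 and 1641. On the recovered reads edgeR called 23 and 21 higher (4.9% and 6.2% of all genes) and DESeq2 25 and 21 (7.97% and 6.59%). None of the 38 was lower at an unadjusted p under 0.05 at either time, and edgeR and DESeq2 on the recovered reads likewise called 0 lower. In bulk tissue, fewer cells of a type and less RNA per cell cannot be told apart.

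The size of the shift was moderate and broad. The median log2 fold change of the 38, given throughout as DKO minus control of log2(CPM + 1), was 0.35 at the acute time, where the median over all tested genes was -0.07. Fitted on the recovered reads, the acute median of the 38 was 0.54 by edgeR and 0.55 by DESeq2, with medians over all tested genes of 0.017 and 0.028. For the prolonged groups it was 0.30, where all tested genes had a median of 0.0015. The log2 fold change was above 0 for 37 of the 38 genes at the acute time (35.4% of all tested genes) and for 33 at the prolonged time (50.4%). In 13 genes every acute DKO library lay above every acute control (1.24% of tested genes), and in 21 genes every prolonged DKO library lay above every prolonged control (8.82%).

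At both times 17 genes were called higher, which held for 1.7% of the 13088 genes tested at both. They were the RNA helicases Ifih1, Ddx58, Dhx58 and Ddx60, the transcription factors Irf7 and Stat2, Isg15 and its ligase Herc6, Ifit1 and Ifit3, Bst2, Rtp4, Epsti1, Parp12, Sp100, Xaf1 and Lgals3bp. Trim25, Rsad2 and Samd9l were called at the acute time alone, and Eif2ak2, Adar, Mx2 and Ifi44 at the prolonged time alone. The other 14 were called at neither time. The ISRE letters were found for 8 of the 15 genes with a window that were called at both times, 2 of the 6 called at 1 time and 1 of the 9 called at neither, and the GAS letters for 1 of 15, 2 of 6 and 4 of 9.

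**Figure D1:**
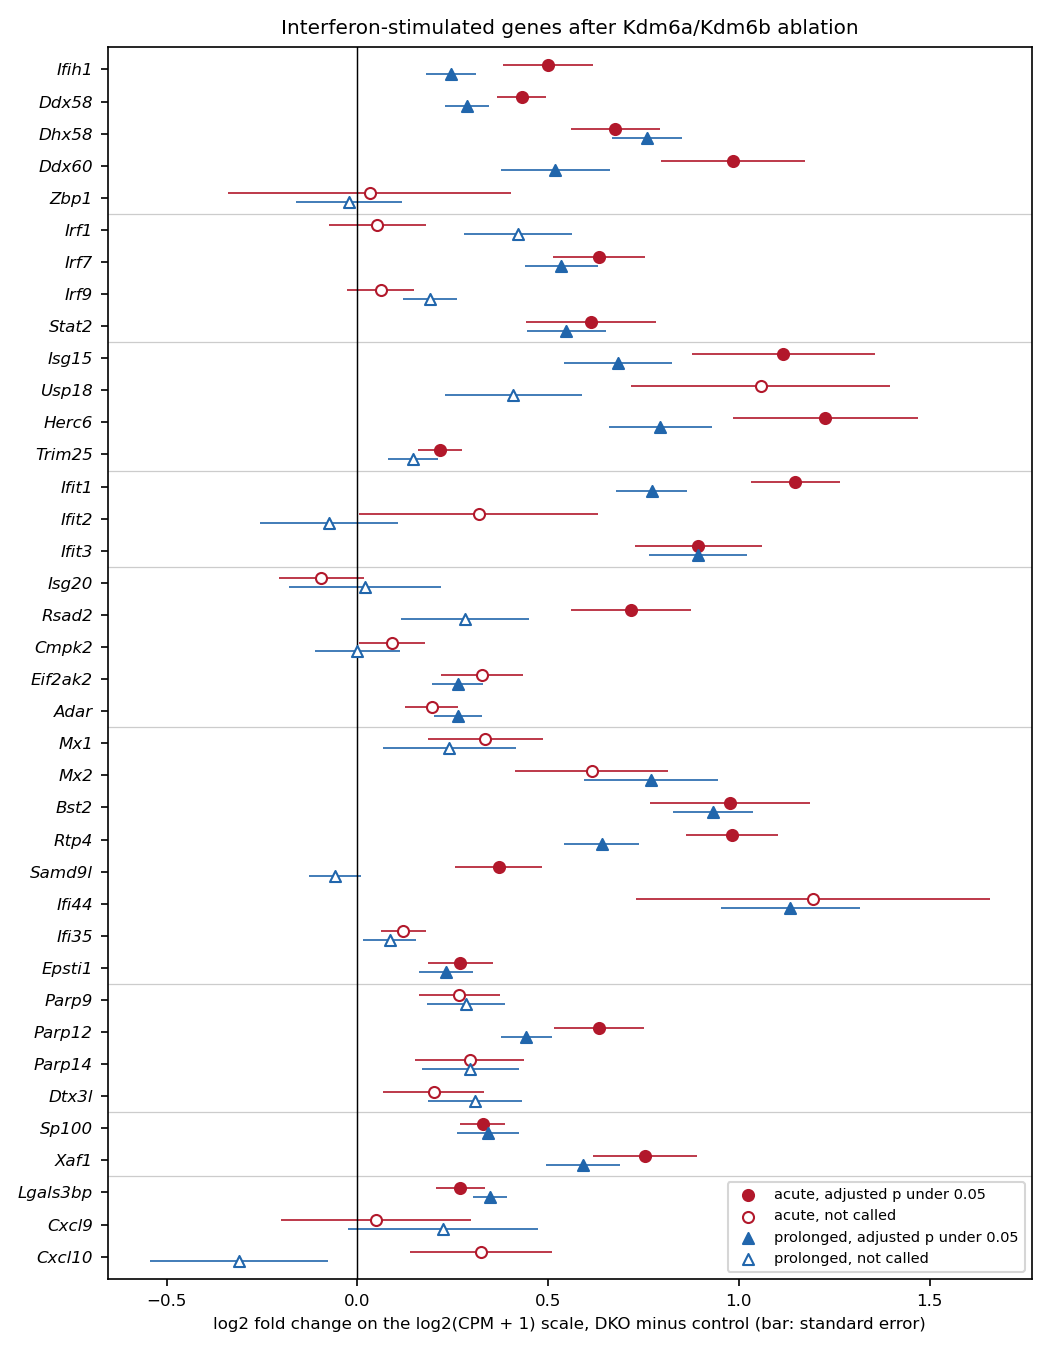
Log2 fold change of each of the 38 genes (DKO minus control, log2(CPM + 1) scale, bars give the standard error), with acute values as circles and prolonged values as triangles, filled where the adjusted p was under 0.05 and grouped by role. The filled points all lie above 0, and the acute values reach 1.23 for Herc6.

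Among the sensors of nucleic acid, 4 of 5 were called higher at each time. Dhx58 encodes LGP2, a helicase that tunes the signal of its relatives. It stood at 16.5, 14.2, 13.1, 12.6 and 12.3 CPM in acute controls and between 19.1 and 27.7 CPM, with a median of 20.4 CPM, in acute DKO libraries. It was 12.9, 11.5 and 10.9 CPM in prolonged controls and 22.1, 21.9, 20.6, 20.6 and 18.0 CPM in prolonged DKO libraries. No DKO library overlapped a control at either time. By limma, Dhx58 rose by 0.68 ± 0.12 (SE, adjusted p = 0.00208) and 0.76 ± 0.09 (adjusted p = 0.000271).

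Ddx60 encodes a helicase linked to the RIG-I pathway, and its promoter stretch above carries the ISRE letters at 2 places. Acute controls held 31.7, 49.8, 52.9, 71.6 and 76.2 CPM, and acute DKO libraries between 80.3 and 128 CPM with a median of 115 CPM. The acute groups did not overlap, although the controls themselves were spread widely. Prolonged controls held 51.3, 51.6 and 62.9 CPM and DKO libraries 61.3, 69.1, 82.7, 84.0 and 106 CPM, so that 1 DKO library fell among the controls. The increase was 0.98 ± 0.19 (limma adjusted p = 0.00379) and 0.52 ± 0.14 (adjusted p = 0.0313). The prolonged call was lost without DKO 4 (adjusted p = 0.0655), DKO 5 (0.0674), control 1 (0.0966) or control 3 (0.125).

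Ddx58, which encodes RIG-I, a sensor of RNA with a 5′ triphosphate, averaged 62.3 ± 3.71 CPM over the acute controls (SD, n = 5) and 84.4 ± 7.03 CPM over the acute DKO group (n = 7). Prolonged controls averaged 75.2 ± 4.32 CPM (n = 3) and prolonged DKO libraries 91.9 ± 4.14 CPM (n = 5). Its groups were separate at both times, with changes of 0.43 ± 0.06 (limma adjusted p = 0.000855) and 0.29 ± 0.06 (adjusted p = 0.00641). Ifih1 encodes MDA5, the sensor of long double-stranded RNA. It rose from 85.2 ± 10.2 to 122 ± 22.2 CPM and from 101 ± 6.01 to 121 ± 8.33 CPM, again without overlap. These changes were 0.50 ± 0.12 (limma adjusted p = 0.0128) and 0.25 ± 0.07 (adjusted p = 0.0258). The prolonged call of Ifih1 was lost without DKO 2 (adjusted p = 0.0508), DKO 4 (0.0605), DKO 5 (0.0515) or control 3 (0.14).

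Zbp1, a sensor of Z-form nucleic acid that can trigger cell death, did not pass the test. It ranged from 29.5 to 77.7 CPM in acute controls and from 28.2 to 144 CPM in acute DKO libraries, with the 2 highest values in DKO 4 and DKO 3. The acute log2 fold change was 0.03 ± 0.37 with those libraries and -0.41 without them. The prolonged groups spanned 27.3 to 37.3 and 23.7 to 39.7 CPM.

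Of the transcription factors, Irf7 and Stat2 were called higher at both times and Irf1 and Irf9 at neither. Irf7, the factor that amplifies type I interferon production, rose from 83.4 ± 13.5 to 130.0 ± 22.1 CPM at the acute time and from 72.5 ± 12.6 to 105 ± 7.48 CPM at the prolonged time. Every DKO library lay above every control, and the changes were 0.63 ± 0.12 (limma adjusted p = 0.00375) and 0.53 ± 0.10 (adjusted p = 0.00331). Stat2, a subunit of the complex that binds the ISRE, was 57.4 ± 14.9 and 88.2 ± 21.6 CPM at the acute time, where the groups overlapped and DKO 4 stood highest at 132 CPM. It was 56.5 ± 5.57 and 83.4 ± 11.3 CPM at the prolonged time, where they did not overlap. Stat2 changed by 0.61 ± 0.17 (limma adjusted p = 0.0281) and 0.55 ± 0.10 (adjusted p = 0.0046). Its acute call was lost with neighbouring animal numbers as a block (adjusted p = 0.131), without DKO 1 (0.0528), DKO 3 (0.0508), control 2 (0.0727), control 3 (0.0791) or control 4 (0.0737), and without DKO 3 and 4 together (0.0534). The labels do not say that near animal numbers mark a litter, and in this block control 5 and DKO 3 and 4 share no block with the other genotype, so they add nothing to the estimate.

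Irf9, the DNA-binding partner of Stat2, was 57.0 ± 7.66 and 59.2 ± 5.39 CPM at the acute time. In the prolonged groups all 5 DKO libraries (55.1 to 60.8 CPM) lay above all 3 controls (44.4 to 54.9 CPM), yet the difference of 0.19 ± 0.07 missed the threshold (limma adjusted p = 0.1). It was called without prolonged control 2 (adjusted p = 0.0495). Irf1, which responds mainly to type II interferon, differed by 0.05 ± 0.13 at the acute time and 0.42 ± 0.14 at the prolonged time (limma adjusted p = 0.836 and 0.0682). The prolonged value of Irf1 passed without DKO 3 (adjusted p = 0.0178) or control 1 (0.045).

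The genes of the Isg15 system included Herc6, which had the largest acute change of the set. Isg15 encodes a small protein that is joined to other proteins much as ubiquitin is. Its level was 21.4, 21.3, 16.9, 13.9 and 10.9 CPM in acute controls, and between 25.2 and 55.7 CPM with a median of 30.3 CPM in acute DKO libraries. Prolonged controls had 15.4, 12.7 and 10.4 CPM and prolonged DKO libraries 24.3, 24.1, 21.4, 19.96 and 16.3 CPM. At both times the lowest DKO library was above the highest control. Isg15 rose by 1.12 ± 0.24 (limma adjusted p = 0.00755) and 0.68 ± 0.14 (adjusted p = 0.00796).

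Herc6 encodes the main ligase that attaches Isg15 in mice. Acute controls held 36.3, 32.8, 22.0, 22.0 and 13.1 CPM, while acute DKO libraries held between 40.6 and 93.0 CPM, with a median of 58.0 CPM. Prolonged controls held 29.8, 25.8 and 24.1 CPM and prolonged DKO libraries 60.2, 51.3, 45.4, 43.5 and 36.0 CPM. The groups were again separate at both times. The change was 1.23 ± 0.24 (limma adjusted p = 0.00463) and then 0.79 ± 0.13 (adjusted p = 0.00253).

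Usp18, the protease that removes Isg15 and also restrains the type I receptor, showed a wide spread among acute DKO libraries, from 12.3 to 65.5 CPM, with controls from 8.44 to 16.3 CPM. Its difference of 1.06 ± 0.34 lay at the threshold (limma adjusted p = 0.0509), and edgeR (adjusted p = 0.0425) and DESeq2 (0.0137) called it higher. It also passed without acute DKO 4 (0.0465), DKO 5 (0.0224), DKO 6 (0.0316) or control 5 (0.0465). At the prolonged time the difference was 0.41 ± 0.18 (limma adjusted p = 0.158), and 0.0103 without prolonged control 2. Trim25, a ubiquitin ligase that acts on RIG-I, rose from 179.7 ± 2.80 to 209 ± 18.0 CPM at the acute time with no overlap (0.22 ± 0.06, limma adjusted p = 0.0246). That call was lost with the block of animal numbers (adjusted p = 0.131), and without DKO 3 (0.0514), control 3 (0.0549) or control 4 (0.0653). Trim25 was 212 ± 16.8 and 235 ± 14.9 CPM at the prolonged time (adjusted p = 0.166).

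The Ifit genes encode proteins that bind foreign RNA and hinder its translation. Ifit1 had the smallest acute adjusted p of the set. Its acute controls held 27.4, 28.4, 30.1, 39.9 and 40.8 CPM, and its acute DKO libraries between 64.0 and 85.1 CPM with a median of 76.3 CPM. Prolonged controls held 27.5, 30.6 and 36.4 CPM and prolonged DKO libraries 48.2, 52.5, 53.6, 58.5 and 58.8 CPM. A wide gap thus lay between the highest control and the lowest DKO library at each time. Ifit1 rose by 1.15 ± 0.12 (limma adjusted p = 6.77e-05) and 0.77 ± 0.09 (adjusted p = 0.000241).

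Ifit3 rose by the same amount at both times, 0.89 ± 0.17 (limma adjusted p = 0.00326) and 0.89 ± 0.13 (adjusted p = 0.000854). Acute controls held 3.37, 4.66, 5.59, 5.69 and 7.33 CPM, and acute DKO libraries between 7.04 and 13.8 CPM with a median of 10.9 CPM. Prolonged controls held 3.84, 4.93 and 5.04 CPM and prolonged DKO libraries 7.63, 9.36, 9.50, 9.52 and 11.1 CPM. One acute DKO library, DKO 4, fell below the highest control, and the prolonged groups were separate.

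Ifit2 lies next to Ifit3 on chromosome 19, with 0 protein-coding genes between them in RefSeq, and did not pass the test at either time. It was 5.09 ± 1.99 and 7.05 ± 3.89 CPM at the acute time (0.32 ± 0.31, limma adjusted p = 0.559). Prolonged values were 4.80 ± 1.30 and 4.50 ± 1.02 CPM, with no DKO library above the highest control. Near-identical family members could share reads in the authors' counting. The relative Ifit1bl1 rose from 53.7 ± 14.3 to 115 ± 53.7 CPM at the acute time (0.98 ± 0.29, limma adjusted p = 0.0383), and differed by 0.45 ± 0.16 at the prolonged time (adjusted p = 0.0865). Ifit3b differed by 0.30 ± 0.13 and 0.48 ± 0.18 (limma adjusted p = 0.148 and 0.0947).

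**Figure D2:**
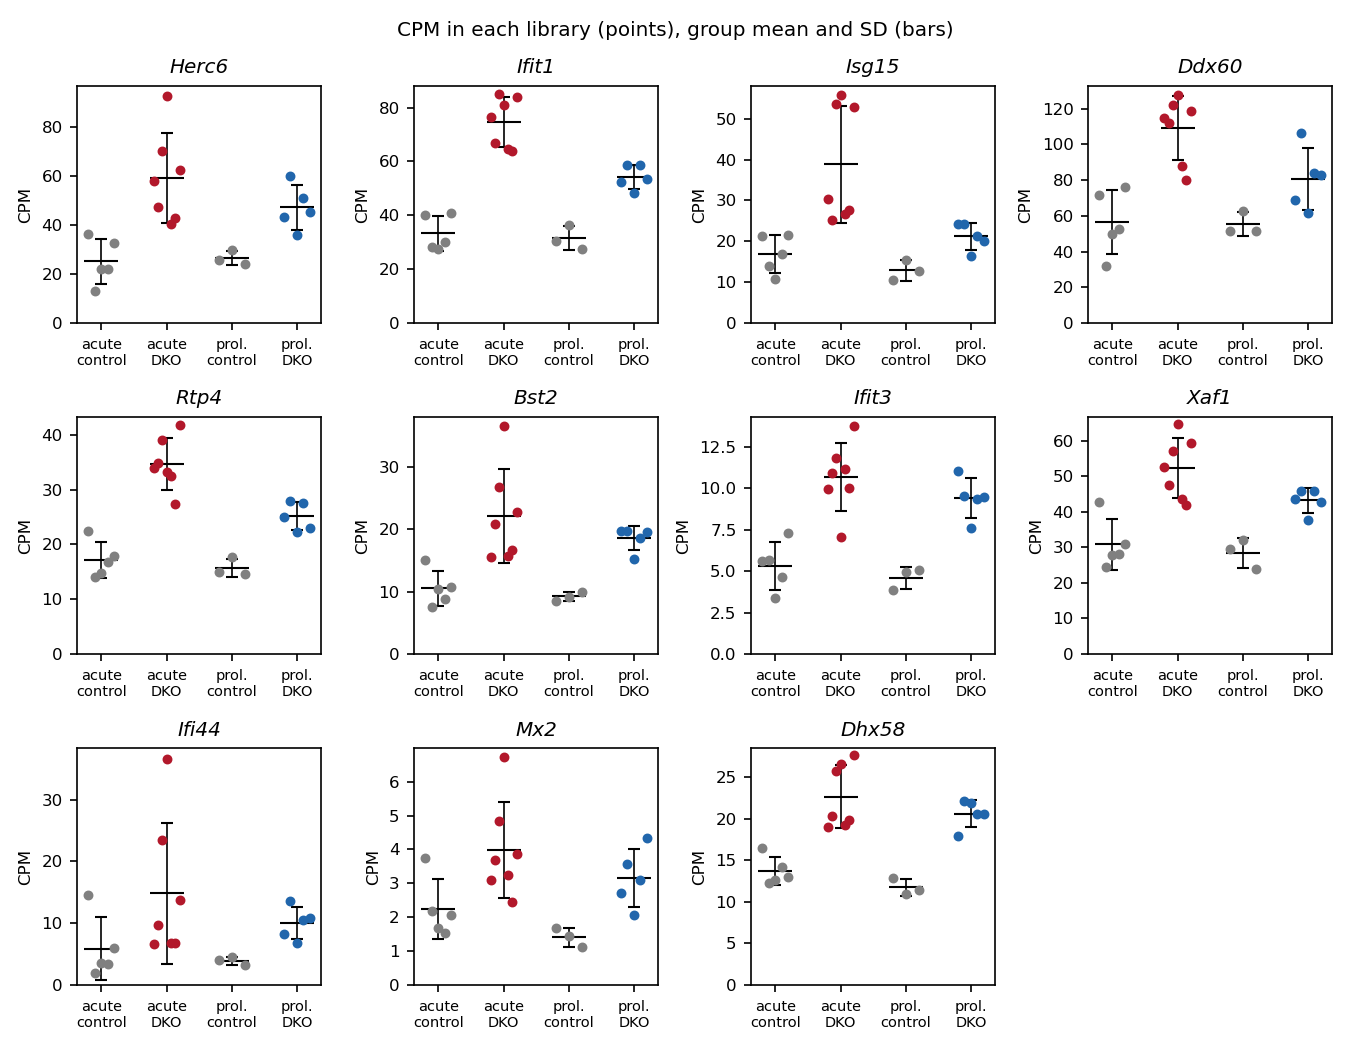
CPM of the 11 genes with the largest called changes in each library (points), with the group mean and SD (bars), for acute control, acute DKO, prolonged control and prolonged DKO libraries. The lowest DKO library lies above the highest control at both times for Herc6, Ifit1, Isg15, Rtp4, Bst2 and Dhx58, and the acute groups overlap for Ifit3, Xaf1, Ifi44 and Mx2.

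Among effectors that act on nucleotides, RNA and translation, 1 of 5 was called higher at the acute time and 2 of 5 at the prolonged time. Rsad2 encodes viperin, which makes a chain-terminating nucleotide. It rose from 5.64 ± 1.31 to 9.93 ± 2.16 CPM at the acute time (0.72 ± 0.16, limma adjusted p = 0.00856), with 5 of 7 DKO libraries above every control. Prolonged values were 5.62 ± 1.69 and 6.93 ± 1.08 CPM (adjusted p = 0.312). Its chromosome 12 neighbour Cmpk2, a nucleotide kinase of mitochondria, differed by 0.09 ± 0.09 at the acute time and was 39.4 ± 4.18 and 39.6 ± 5.71 CPM at the prolonged time. Of these adjacent genes, Rsad2 alone was called at the acute time, and neither was called at the prolonged time.

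Eif2ak2, the double-stranded RNA kinase PKR that halts translation, was 65.9 ± 2.64 and 79.4 ± 5.86 CPM at the prolonged time with no overlap (0.26 ± 0.07, limma adjusted p = 0.0208). The call was lost without prolonged control 2 (adjusted p = 0.0617) or control 3 (0.0903). At the acute time the difference was 0.33 ± 0.11 (limma adjusted p = 0.0586), and edgeR called it (adjusted p = 0.0413). Adar, which edits adenosine in double-stranded RNA, rose from 84.4 ± 5.86 to 101 ± 5.63 CPM at the prolonged time (0.26 ± 0.06, limma adjusted p = 0.0154). That call too was lost without control 3 (0.0877). Its acute difference was 0.19 ± 0.07 (limma adjusted p = 0.0795, edgeR adjusted p = 0.0443). Without acute DKO 5 or acute control 1, limma called both acute differences (adjusted p from 0.0226 to 0.0445). Isg20, an exonuclease that degrades RNA, lay between 1.11 and 3.03 CPM in the 20 libraries and was not called at either time.

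Of 8 Mx and other antiviral effector genes, 4 were called higher at the acute time and 5 at the prolonged time. Bst2 encodes tetherin, which holds budding virus particles at the cell surface. Acute controls had 7.50, 8.86, 10.5, 10.8 and 15.1 CPM, and acute DKO libraries between 15.5 and 36.6 CPM with a median of 20.9 CPM. Prolonged controls had 8.50, 9.23 and 9.99 CPM and DKO libraries 15.2, 18.6, 19.5, 19.7 and 19.8 CPM. The groups nearly touched at the acute time and were well apart at the prolonged time. Bst2 rose by 0.98 ± 0.21 (limma adjusted p = 0.00738) and 0.93 ± 0.10 (adjusted p = 0.000153).

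Rtp4 encodes a transmembrane chaperone of receptors that is induced by interferon. It stood at 13.97, 14.7, 16.8, 17.9 and 22.4 CPM in acute controls, and between 27.3 and 41.8 CPM with a median of 33.9 CPM in acute DKO libraries. Prolonged controls were at 14.6, 15.1 and 17.7 CPM and prolonged DKO libraries at 22.3, 23.0, 25.0, 27.5 and 28.003 CPM. Both pairs of groups were separate. The increase was 0.98 ± 0.12 (limma adjusted p = 0.000222) and 0.64 ± 0.10 (adjusted p = 0.00133).

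Ifi44 had the largest prolonged change of the set and the noisiest acute one. Prolonged controls held 3.23, 4.01 and 4.53 CPM and prolonged DKO libraries 6.81, 8.28, 10.6, 10.8 and 13.5 CPM, a rise of 1.14 ± 0.18 (limma adjusted p = 0.00181). Acute controls held 1.88, 3.35, 3.50, 6.05 and 14.6 CPM, and acute DKO libraries between 6.70 and 36.6 CPM with a median of 9.74 CPM. The acute groups overlapped through control 1, which alone exceeded 5 of the 7 DKO libraries. The acute difference of 1.19 ± 0.46 was not called (limma adjusted p = 0.103), and without acute control 1 it was (adjusted p = 0.0377).

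Mx2, a GTPase of the dynamin family that acts on viruses, stood at 1.11, 1.43 and 1.68 CPM in prolonged controls and 2.06, 2.71, 3.10, 3.59 and 4.33 CPM in prolonged DKO libraries. It rose by 0.77 ± 0.17 (limma adjusted p = 0.0124), a call lost without prolonged control 3 (adjusted p = 0.0681). Acute controls held 1.53, 1.68, 2.07, 2.18 and 3.74 CPM and acute DKO libraries between 2.46 and 6.71 CPM, with a median of 3.68 CPM. The acute groups overlapped through control 1, and the difference of 0.61 ± 0.20 missed the threshold (limma adjusted p = 0.055). Without control 1 (adjusted p = 0.0249) or DKO 6 (0.0324) it passed, as it did by DESeq2 (0.0161). Its relative Mx1 differed by 0.34 ± 0.15 and 0.24 ± 0.17, below the threshold at both times.

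Samd9l, a gene that restrains growth and viral translation, rose at the acute time from 55.5 ± 11.3 to 70.7 ± 4.47 CPM (0.37 ± 0.11, limma adjusted p = 0.0451), close to the threshold. Leaving out any 1 of 9 libraries ended that call, with adjusted p of up to 0.0866, as did the block of animal numbers (0.15). At the prolonged time it was 65.1 ± 4.69 and 62.5 ± 4.08 CPM, with no DKO library above the highest control. Epsti1 was called at both times close to the threshold, by 0.27 ± 0.08 and 0.23 ± 0.07 (limma adjusted p = 0.047 and 0.0465). Its acute call ended without any 1 of 10 libraries and its prolonged call without any 1 of 7, with adjusted p of up to 0.128 and 0.129. With the block of animal numbers the acute value was not called either (0.247). Ifi35 differed by 0.12 ± 0.06 and 0.08 ± 0.07 and was not called.

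Parp12, a mono-ADP-ribosyltransferase, was the one member of the Parp and Dtx3l group of 4 to be called, at both times. It rose from 104 ± 13.3 to 162 ± 30.4 CPM and from 96.5 ± 7.38 to 131 ± 8.93 CPM, with separate groups. These changes were 0.63 ± 0.12 (limma adjusted p = 0.00315) and 0.44 ± 0.07 (adjusted p = 0.0012). Parp14, Dtx3l and Parp9 lie side by side on chromosome 16, and the Parp9 and Dtx3l proteins form a complex. Their acute log2 fold changes were 0.29 ± 0.14, 0.20 ± 0.13 and 0.27 ± 0.11, and their prolonged ones 0.30 ± 0.13, 0.31 ± 0.12 and 0.28 ± 0.10. None of these 6 values passed, by limma adjusted p, and DESeq2 called acute Parp9 higher (adjusted p = 0.0372). In each of the 3 genes acute DKO 4 was the highest library and prolonged DKO 3 the lowest DKO library. Without prolonged DKO 3 all 3 were called higher (adjusted p = 0.0127, 0.0154 and 0.011).

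Sp100 and Xaf1 were called higher at both times. Sp100, a component of nuclear bodies formed with the Pml protein, rose from 52.4 ± 3.36 to 66.1 ± 4.25 CPM and from 52.2 ± 5.75 to 66.3 ± 4.90 CPM. The changes were 0.33 ± 0.06 (limma adjusted p = 0.00259) and 0.34 ± 0.08 (adjusted p = 0.0148, and 0.087 without prolonged control 3). Xaf1, which opposes an inhibitor of apoptosis, held 24.5, 27.9, 27.99, 30.9 and 42.8 CPM in acute controls, and between 41.8 and 64.6 CPM with a median of 52.6 CPM in acute DKO libraries. Prolonged controls held 23.8, 29.4 and 32.2 CPM and prolonged DKO libraries 37.6, 42.7, 43.6, 45.9 and 45.9 CPM. Acute control 1 was the one control that reached a DKO library. Xaf1 rose by 0.75 ± 0.14 (limma adjusted p = 0.00264) and 0.59 ± 0.10 (adjusted p = 0.00215).

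Of the secreted products, Lgals3bp, a glycoprotein that binds galectins, rose at both times. It was 301 ± 30.2 and 363 ± 20.4 CPM at the acute time, where control 1 overlapped the DKO range, and 327 ± 4.27 and 417 ± 7.84 CPM at the prolonged time. The changes were 0.27 ± 0.06 (limma adjusted p = 0.0133) and 0.35 ± 0.04 (adjusted p = 0.000352). With the block of animal numbers the acute change was 0.17 and not called (adjusted p = 0.0964). Cxcl9 and Cxcl10 are chemokines that draw T cells through the receptor Cxcr3, and both were low in these libraries. Cxcl9 lay between 0.259 and 2.80 CPM and Cxcl10 between 0.619 and 2.74 CPM over all 20 libraries. Neither was called, with differences of 0.05 ± 0.25 and 0.22 ± 0.25 for Cxcl9, and of 0.32 ± 0.19 and -0.31 ± 0.23 for Cxcl10.

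The acute log2 fold change was larger than the prolonged one for 26 of the 38 genes. The change of the genotype effect between times was tested gene by gene, and 0 of 38 passed, nor did any of the 13088 genes tested (0.0%), by limma or by edgeR in 1 model. At an unadjusted p under 0.05, 5.09% of all genes and 3 of the 38 differed. These were Ifit1 (-0.38 ± 0.15, prolonged minus acute), Rtp4 (-0.34 ± 0.15) and Samd9l (-0.43 ± 0.13), with unadjusted p of 0.0265, 0.048 and 0.00748 and an adjusted p of 0.779 each. The genes called at 1 time alone were therefore not shown to differ between times.

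Some libraries stood high or low across many of these genes at once. Acute DKO 4 was the highest of the 7 acute DKO libraries in 24 of the 38 genes, and acute control 1 the highest of its 5 in 24. Acute control 2 was the lowest control in 21. Prolonged DKO 3 was the lowest DKO library in 28 genes and prolonged control 3 the lowest control in 22. The mean log2(CPM + 1) over the 38 genes ran from 4.66 to 5.26 in acute controls and from 5.22 to 5.76 in acute DKO libraries, with control 1 above 2 of the DKO libraries. It ran from 4.79 to 4.97 and from 5.08 to 5.35 at the prolonged time. Without acute DKO 3 and 4, 17 of the 20 acute calls held, and Stat2, Samd9l and Epsti1 did not. Calls over all genes went from 2035 to 1705 in that setting. Without prolonged control 3, the shallowest library, 14 of the 21 prolonged calls held, and Ifih1, Ddx60, Eif2ak2, Adar, Mx2, Epsti1 and Sp100 did not. There the calls over all genes fell as well, from 1955 to 1028. Over all libraries left out in turn, 16 acute and 14 prolonged calls held in every case.

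**Figure D3:**
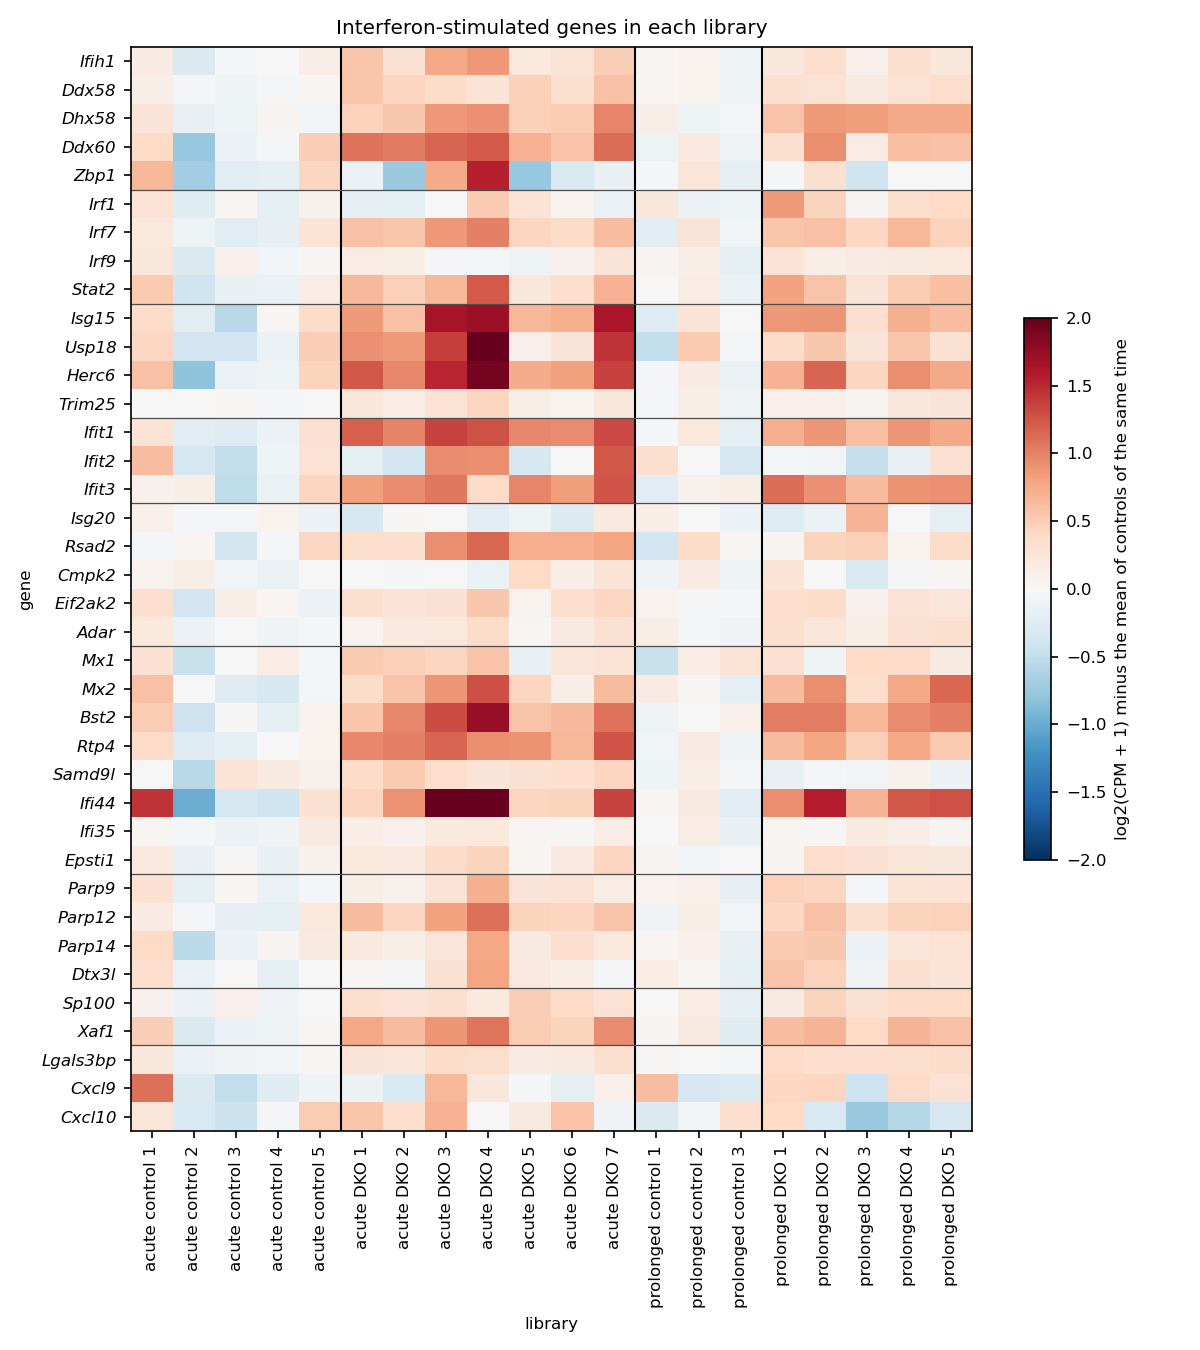
Level of each of the 38 genes (rows, grouped by role) in each of the 20 libraries (columns), as log2(CPM + 1) minus the mean of the controls of the same time; red is above the controls, blue below, and colours stop at the ends of the scale. The columns of acute DKO 4 and acute control 1 are the reddest of their groups, and each is the highest of its group in 24 of the 38 genes.

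The upstream genes of the pathway were read as separate lists. Of 12 interferon gene symbols, which include older names, 4 were listed in the acute table and 2 in the prolonged one. None of these passed the filter on low values, and their summed level stayed at or below 0.729 CPM in every library. Of 6 interferon receptor genes tested, Ifnlr1, the specific chain of the type III receptor, rose from 23.99 ± 2.004 to 29.7 ± 3.62 CPM at the acute time (0.29 ± 0.09, limma adjusted p = 0.0404). Il10rb, its partner chain, rose by 0.27 ± 0.08 (adjusted p = 0.0456), and edgeR called 1 of these receptors. By limma 0 receptor genes were called at the prolonged time, where 1 was lower at an unadjusted p under 0.05, and edgeR and DESeq2 also called 0.

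Among 10 genes of Janus kinase signalling and other interferon regulatory factors, the kinase Jak2 rose at both times, by 0.33 ± 0.07 and 0.24 ± 0.06 (limma adjusted p = 0.00841 and 0.0216). Irf3, which starts interferon transcription, rose at the prolonged time by 0.18 ± 0.05 (limma adjusted p = 0.0328). By limma 1 gene of this list was called lower at each time. With edgeR and with DESeq2, 0 were called lower at the acute time and 1 at the prolonged time.

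Of the sensing adaptors and kinases, 13 passed the filter at 7 days and 11 at 5 months, and 1 was called higher and 1 lower at each time. Mavs, the mitochondrial adaptor of RIG-I and MDA5, rose from 99.6 ± 2.03 to 121 ± 9.55 CPM and from 104 ± 2.46 to 119.7 ± 3.72 CPM (limma adjusted p = 0.00628 and 0.0136). Mb21d1, which encodes the DNA sensor cGAS, fell from 11.7 ± 1.76 to 8.12 ± 1.48 CPM at the acute time (limma adjusted p = 0.0236), and the kinase Ikbke fell from 56.2 ± 2.74 to 46.1 ± 2.39 CPM at the prolonged time (adjusted p = 0.0105). A list of 8 genes held feedback inhibitors and regulators of antigen presentation genes. Of these, limma called 0 at the acute time, where 2 were higher at an unadjusted p under 0.05, edgeR called 0 and DESeq2 1. At the prolonged time Nlrc5, a regulator of class I antigen presentation genes, rose from 17.0 ± 6.21 to 36.8 ± 5.42 CPM (1.12 ± 0.18, limma adjusted p = 0.00215).

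Markers of other cells and cell states were read beside these results. Of 12 markers of crypt and proliferating cells, 10 were called lower at the acute time and 8 at the prolonged time. Their summed level lay between 2218 and 2817 CPM in acute controls and between 1088 and 1685 CPM in acute DKO libraries, and between 2557 and 2987 and between 1745 and 2077 CPM at the prolonged time. Of 12 villus enterocyte markers, limma and edgeR each called 2 higher at each time. DESeq2 called 6 higher at the acute time and 3 at the prolonged time, and TMM-scaled limma 1 and 2. At an unadjusted limma p under 0.05, 6 were higher and 0 lower at the acute time. At the prolonged time 4 were higher and 2 lower. The median log2 fold change of these 12 was 0.30 and 0.20, beside 0.35 and 0.30 for the 38 genes. Their summed levels in control and DKO libraries were 20610 to 34010 and 28476 to 38244 CPM at the acute time. The prolonged sums were 23992 to 34757 and 31996 to 36105 CPM. The part of this shift between crypt and villus genes in the rise of the interferon-stimulated genes was not tested.

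Immune markers were present in all groups. Of 12 T and NK lymphocyte markers, 0 were called at either time by limma, edgeR or DESeq2, and 0 had an unadjusted p under 0.05. Their sum was 552 to 958 CPM in acute controls and 332 to 1042 CPM in acute DKO libraries, and 367 to 777 and 475 to 1135 CPM at the prolonged time. Acute DKO 4, the library highest in most of the 38 genes, had the lowest T and NK sum of all acute libraries. Its macrophage and dendritic cell sum was 228 CPM and its stroma, muscle and endothelium sum 214 CPM. Its B and plasma cell sum was 12.8 CPM and its villus enterocyte sum 28476 CPM. Its crypt and proliferating sum, 1088 CPM, was the lowest of all acute libraries, with 1128 CPM in acute DKO 3. Acute DKO 3 had a T and NK sum of 1041 CPM. Its mean log2(CPM + 1) over the 38 genes was 5.62, beside 5.76 in DKO 4. Of 11 macrophage and dendritic cell markers in the tables, limma called 0 at the acute time, where 0 had an unadjusted p under 0.05. Their sum was 54.2 to 329.9 and 52.1 to 591 CPM, with the highest value in acute DKO 3. Among prolonged libraries Itgam was called higher, of 9 markers tested, and the sums were 40.2 to 53.5 and 51.0 to 60.6 CPM. Stromal, muscle and endothelial markers summed to 28.4 to 165 and 18.8 to 624 CPM at the acute time, again with the highest value in DKO 3. There DESeq2 and TMM-scaled limma each called 1 of 9 tested higher, and limma and edgeR called 0. The sums of these markers were 4.53 to 6.25 and 6.55 to 15.1 CPM at the prolonged time, where Pdgfrb was called higher of 4 tested. B and plasma cell markers summed to at most 25.8 CPM, with 0 called by limma at either time. At the prolonged time 1 was higher at an unadjusted p under 0.05, DESeq2 called 1 higher and edgeR called 0. Among markers found in the authors' tables, none was at 0 in every library of a time. Markers absent from a table could not be checked in this way. Of 12 stroma, muscle and endothelium markers, 12 were found at the acute time and 11 at the prolonged time. The part of other cells in the results was not tested.

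**Figure D4:**
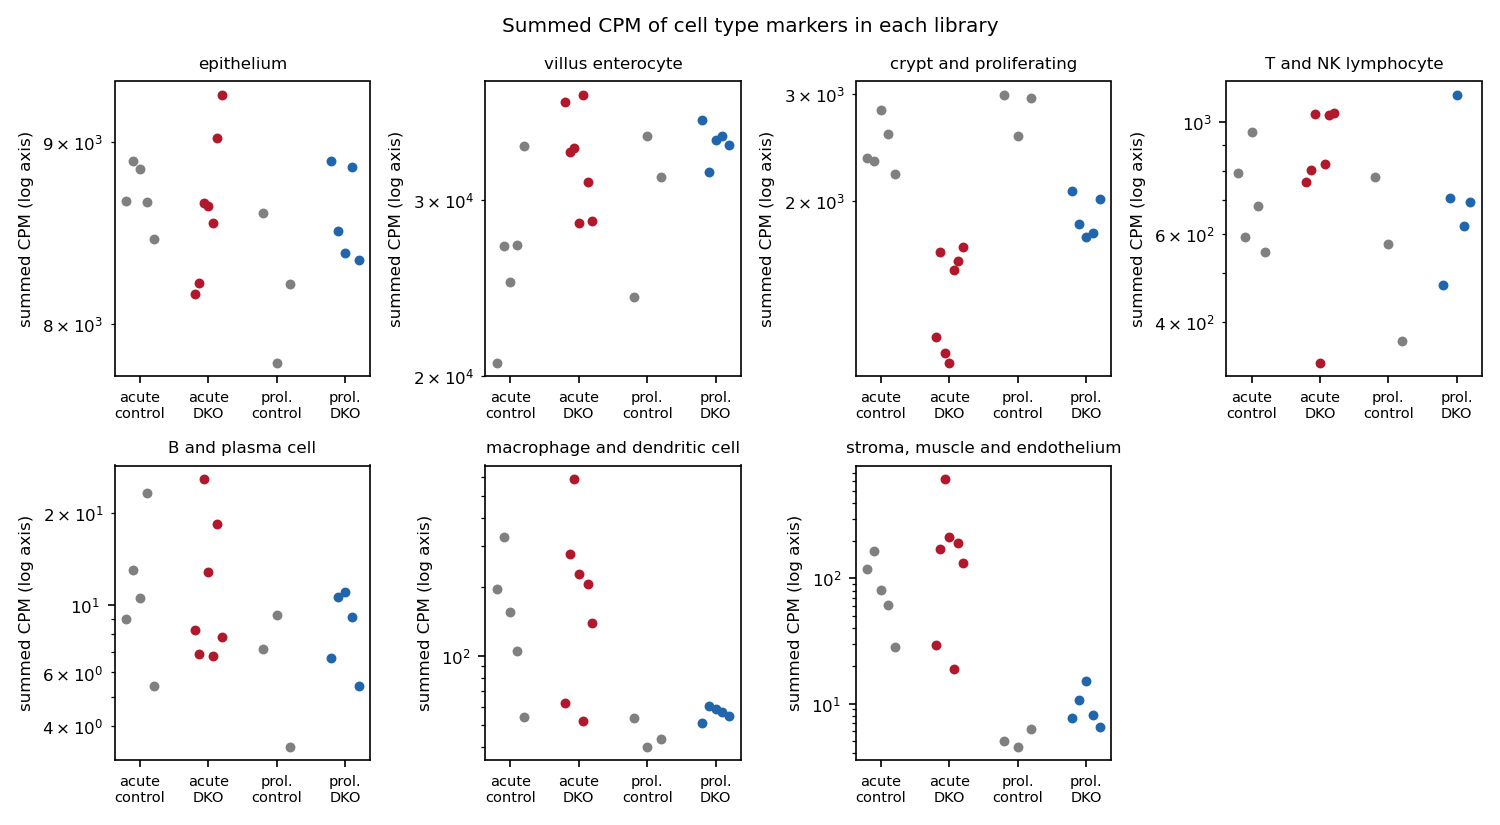
Summed CPM of each marker list in each library (points, log axes), for acute control, acute DKO, prolonged control and prolonged DKO (prol.) libraries. The sum of crypt and proliferating markers separates the genotypes at each time, with DKO libraries lower (at most 1685 against at least 2218 CPM at the acute time), and the sums for the other lists overlap between the acute groups. At the prolonged time the stroma, muscle and endothelium sum also separates, with DKO libraries higher (6.55 to 15.1 against 4.53 to 6.25 CPM).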

How the data were processed

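The authors deposited 1 table per time, a row per gene symbol, with CPM values: the reads of a gene scaled to the same total of reads in genes for each library, as the equal column sums show. The submitters' processing notes list the build mm9 and the tools STAR, featureCounts 1.6.2, DESeq2, SAMtools 1.9, FastQC 0.11.5 and bedtools 2.27.1, with no role given. Per the labels' protocols, poly(A) RNA was converted to libraries with NEB kits. No source used here tells whether strand was counted, so reads of overlapping genes cannot be told apart.

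Each time was fitted alone, on log2 of CPM with a pseudocount of 1, by limma with a trended prior (limma 3.58.1 in R 4.3.3), as the main test. Tested genes reached 0.5 CPM in at least 5 acute or 3 prolonged libraries, 13601 and 13316 genes. Benjamini-Hochberg adjustment ran over all of them, with calls at an adjusted p under 0.05. The scale understates changes of low genes. To compare times, the acute log2 fold change was subtracted from the prolonged one, and the result was set against the combined standard error two-sided, with adjustment over 13088 genes. All values (100%) were whole multiples of their library's smallest step, to 0.01 reads, so reads were recovered and tested with edgeR 4.0.16 and DESeq2 1.42.0 as alternatives. This evidence is weaker in prolonged control 3, whose step is close to a power of 10. The other alternatives were other pseudocounts and filters, TMM scaling, blocks, and leaving out libraries. Counts of 44 library pairs within groups varied 6.49 to 148 times as much as sampling alone gives, and all 20 libraries were kept as separate samples. Libraries held 9914738 to 26586045 reads in genes. The limma script was tested on simulated data. The members, gene lists and tests were chosen with earlier results of these data known. All 38 genes are named, and values of every library are given for the 8 largest called changes at each time. Pathway genes are named where called, except for results that are not reported here, and Ifit1bl1 and Ifit3b were added after their values were seen. ISRE and GAS letters were searched in promoter windows from RefSeq (GRCm38.p6), and gene order is from RefSeq as well.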

Additional observations from a re-analysis of the deposited data

Results flagged for a closer look

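In 114 groups of 4 to 10 libraries, 1 per gene, genotype and time, 10 held a library far from the others by Dixon's criterion, where chance gives about 1 in 20 groups. Acute DKO 4 was far above the other acute DKO libraries in 5 genes. It held 132 CPM of Stat2 (next highest 91.4 CPM), 65.5 CPM of Usp18 (next 32.7 CPM), 180.3 CPM of Parp9 (next 134 CPM), 258 CPM of Parp14 (next 189 CPM) and 219 CPM of Dtx3l (next 157 CPM). Acute control 1 held 2.80 CPM of Cxcl9, with 0.690 CPM in the next highest control.

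Prolonged DKO 3 stood apart in 3 genes. Its Isg20 was high, at 3.03 CPM with 1.504 CPM in the next library. Its Bst2 was low, at 15.2 CPM against 18.6 CPM, still above every prolonged control. Its Cxcl9 was low, at 0.275 CPM against 1.08 CPM. Prolonged DKO 1 held 2.55 CPM of Cxcl10, with 1.17 CPM in the next highest DKO library.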

How the results depend on the processing

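The count of genes called higher was 20 at the acute time and 21 at the prolonged time. Other scalings, tools, filters and pseudocounts gave 18 to 25 at the acute time and 21 at the prolonged time, and the count of genes called lower and of genes changed between times was 0 in every setting run. Leaving out 1 library gave 16 to 23 acute and 14 to 24 prolonged calls. Over all genes these fits called 1222 to 2186 and 1028 to 1705, beside 2035 and 1955 in the main test. By expression, 0 of 8 controls were closest to the DKO library of their own replicate number. Correlations of same-numbered deviations ran from -0.24 to 0.20 over 8 pairs, with 2 over 0.1. Whether same-numbered libraries were handled as pairs cannot be told from these values. With the replicate number as a block, 12 acute and 11 prolonged genes were called, and 947 and 528 of all genes. The acute calls lost were those of Isg15, Stat2, Rsad2, Bst2, Trim25, Samd9l, Epsti1 and Lgals3bp. The prolonged calls lost were those of Ifit3, Isg15, Mx2, Ifih1, Ddx58, Ddx60, Epsti1, Sp100, Eif2ak2 and Adar. A block of neighbouring animal numbers gave 15 acute calls, without Stat2, Trim25, Samd9l, Epsti1 and Lgals3bp, and 1419 calls over all genes. Among all genes the acute split of higher to lower calls moved from 394 and 1641 to 660 and 1124 with TMM-scaled limma, 667 and 1081 or 736 and 1029 with edgeR (TMM or relative log expression factors) and 1084 and 1248 with DESeq2. The acute median of the 38 moved from 0.35 to 0.44 with TMM-scaled limma, 0.54 and 0.55 with edgeR and 0.55 with DESeq2, and the median of all genes by under 0.1 (log2). Called in every alternative were 12 acute and 11 prolonged genes. Genes that changed sign were uncalled in all settings where they did so. At the acute time Ifit2 was -0.10 with the animal block, Irf1 -0.030 without DKO 3 and 4, and Zbp1 -0.53 and -0.41 in these settings. Acute Cxcl9 was -0.33 and -0.11 there, and -0.020 and -0.0050 by edgeR with TMM and relative log expression factors. Prolonged Cmpk2 was 0.011 by DESeq2, 0.010 and 0.0095 by edgeR with these factors and 0.0089 with TMM-scaled limma, beside -0.00043 in the main test. Leaving out 1 library turned the sign of some uncalled genes. Acute values then ranged from -0.076 to 0.32 for Cxcl9, -0.027 to 0.12 for Irf1, -0.22 to 0.20 for Zbp1 and -0.013 to 0.12 for Irf9. Prolonged values ranged from -0.070 to 0.083 for Cmpk2, -0.24 to 0.086 for Ifit2, -0.15 to 0.088 for Isg20 and -0.12 to 0.096 for Zbp1. The cause was not tested. At low levels such as those of Cxcl9, Cxcl10, Isg20 and Mx2, values rest on few reads, and how far depth limits each was not compared.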
